A study of Mus musculus with 19 samples.

Results

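Cell cycle and proliferation genes were followed across sorted epithelial cells of the mouse nose. The 38 genes were taken by symbol from the authors' normalized table, which holds 26221 genes, and all 38 were found. By role, 15 act in mitosis, 13 in DNA replication and 7 in the G1 phase and at the restriction point, and 3 are inhibitors of cyclin-dependent kinases (CDK). Gene expression was measured by bulk RNA sequencing in 19 libraries from naive mice. In these ChAT(BAC)-eGFP mice, an artificial chromosome that carries Chat regulatory DNA marks cholinergic cells with enhanced green fluorescent protein (eGFP). All cells were CD45-negative, EpCAM-positive and live by propidium iodide. FSClow (n = 9) held eGFP-positive cells of low forward and side scatter, FSChi (n = 5) held eGFP-positive cells of high scatter, and EpCAM (n = 5) held eGFP-negative epithelial cells. The labels give neither ages nor the animal behind each library, so p-values reflect only how far these samples vary, and that variation may be technical.

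A cell that divides passes through G1, in which D-type cyclins with CDK4 or CDK6 inactivate the retinoblastoma protein and release E2F transcription factors. E2F targets load and copy the DNA, and a later wave of cyclins, kinases and spindle proteins drives mitosis. CDK inhibitors of the Cip/Kip family hold these kinases back and are commonly high in cells that have left the cycle. In nasal epithelium the dividing cells are mainly basal and progenitor cells, whereas tuft (brush) cells, the chemosensory class to which cholinergic cells belong, are regarded as largely differentiated.

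The shallowest library was FSChi replicate 2 with 1348428 counts and the deepest FSChi replicate 3 with 7477695. FSClow libraries were shallower than EpCAM libraries (two-sided exact permutation p = 0.0015, adjusted p = 0.0045 over 3 comparisons). Levels are given as CPM, each count divided by the TMM-scaled total of its library, and 3 counts in a library correspond to between 0.403 and 2.41 CPM. All 11 tuft cell markers were higher in FSClow and in FSChi than in EpCAM. One of them, Chat, is the gene whose regulatory sequence drives the eGFP used in the sort. FSChi libraries also held markers of other epithelial cells at levels that varied between libraries. EpCAM replicate 5 stood apart, with a summed level of the 15 mitosis genes of 698 CPM against 131 to 234 CPM in the other 4 EpCAM libraries. Results that rest on this library are given with and without it. In bulk samples, fewer cells of a type and less RNA per cell cannot be told apart.

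Most mitosis genes were far lower in the cholinergic cells of low scatter than in eGFP-negative epithelium, the CDK inhibitors were higher, and genes of DNA replication were mostly not called. Of the 38 genes, 36 passed the filter on low counts, and a gene was called at an adjusted p under 0.05 in edgeR's quasi-likelihood test with Benjamini-Hochberg adjustment over 13340 genes. In FSClow against EpCAM, 19 members were lower and 4 higher, where 23.1% of all tested genes were lower and 22.0% higher. In FSChi against EpCAM, 10 members were lower and 3 higher, against 12.2% and 13.5% of all tested genes. In FSChi against FSClow, 10 members were higher and 2 lower, against 15.5% and 9.3% of all tested genes. The median log2 fold change over the 36 members was -1.45, -1.13 and 0.09 in these comparisons, and over all tested genes 0.05, -0.02 and -0.01. The comparisons share libraries and are not independent of each other. Without EpCAM replicate 5, 19 members were lower and 5 higher in FSClow against EpCAM, and 7 were lower and 4 higher in FSChi against EpCAM.

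**Figure D1:**
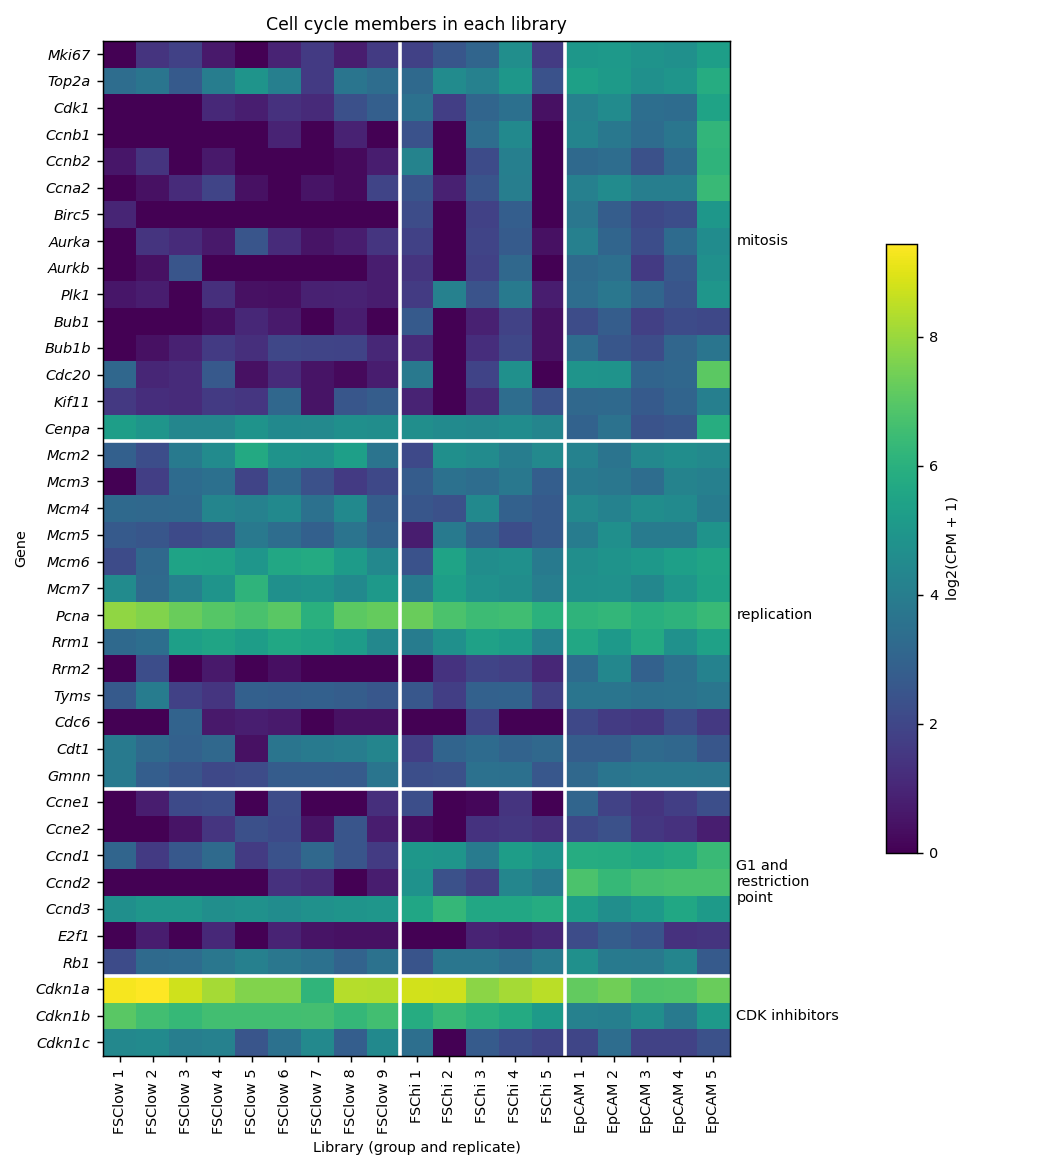
Level of each of the 38 genes (rows, by role) in each of the 19 libraries (columns, by group), as colour on a log2(CPM + 1) scale. The mitosis block is dark in FSClow except for Top2a, Cenpa and a few scattered entries, bright in EpCAM replicate 5, and uneven among the FSChi libraries.

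Among mitosis genes, 14 of 15 were lower in FSClow than in EpCAM and none was higher, against 23.1% and 22.0% of all tested genes. Mki67 (Entrez 17345, chromosome 7, 135689784 to 135716450, mm10) encodes the proliferation antigen Ki-67, which coats mitotic chromosomes. It ranged from 0 to 2.52 CPM in FSClow with a median of 0.908 CPM, and 2 of the 9 libraries held no read. In FSChi replicates 1 to 5 it stood at 2.59, 4.82, 7.39, 24.6 and 2.13 CPM. In EpCAM replicates 1 to 5 it stood at 31.2, 33.8, 27.7, 25.4 and 38.7 CPM. Every FSClow and every FSChi library lay below every EpCAM library, and FSChi replicate 4 came close to EpCAM. The log2 fold change was -4.75 ± 0.54 (SE, edgeR adjusted p = 1.2e-07) in FSClow against EpCAM, 2.89 ± 0.55 (SE, edgeR adjusted p = 0.00041) in FSChi against FSClow and -1.86 ± 0.56 (SE, edgeR adjusted p = 0.016) in FSChi against EpCAM.

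Top2a (Entrez 21973, chromosome 11, 98992947 to 99024199) encodes the topoisomerase that untangles sister chromatids. Its FSClow libraries ran from 2.01 to 28.7 CPM with a median of 11.6 CPM. The FSChi libraries, in order, held 8.47, 22.5, 16.7, 31.0 and 4.25 CPM, and the EpCAM libraries 40.1, 34.0, 25.6, 29.3 and 56.9 CPM. FSClow replicate 5 and FSChi replicate 4 reached into the EpCAM range. Top2a fell by 1.60 ± 0.41 log2 units in FSClow against EpCAM (SE, edgeR adjusted p = 0.0024). In FSChi against EpCAM its log2 fold change was -1.17 ± 0.48 (SE, edgeR adjusted p = 0.076), and in FSChi against FSClow it was 0.43 ± 0.43 (SE, edgeR adjusted p = 0.50).

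Promoters are shown for the 6 members with the smallest p in FSClow against EpCAM among those with a window in the RefSeq table (GRCm38.p6). Each window spans 250 bases before to 50 after the start, and 29 of the 38 members had one. The capitals mark matches to CCAAT or to the CHR letters, TTTGAA or TTCGAA, on either strand, so that a CCAAT box on the other strand reads ATTGG. Known from work on mammalian cells, these elements occur together in promoters of mitosis genes bound by NF-Y and the DREAM and MuvB complexes. The windows are those of Mki67 (chr7:135716330-135716629, minus strand), Plk1 (chr7:122159185-122159484, plus strand), Ccnb2 (chr9:70421505-70421804, minus strand), Ccnb1 (chr13:100786437-100786736, minus strand), Birc5 (chr11:117848987-117849286, plus strand) and Cdkn1b (chr6:134920151-134920450, plus strand).
Mki67: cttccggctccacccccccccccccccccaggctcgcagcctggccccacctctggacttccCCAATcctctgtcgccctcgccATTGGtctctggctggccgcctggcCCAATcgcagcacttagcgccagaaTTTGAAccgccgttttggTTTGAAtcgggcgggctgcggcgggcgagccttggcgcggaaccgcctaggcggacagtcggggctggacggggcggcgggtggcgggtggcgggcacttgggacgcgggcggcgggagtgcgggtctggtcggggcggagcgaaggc
Plk1: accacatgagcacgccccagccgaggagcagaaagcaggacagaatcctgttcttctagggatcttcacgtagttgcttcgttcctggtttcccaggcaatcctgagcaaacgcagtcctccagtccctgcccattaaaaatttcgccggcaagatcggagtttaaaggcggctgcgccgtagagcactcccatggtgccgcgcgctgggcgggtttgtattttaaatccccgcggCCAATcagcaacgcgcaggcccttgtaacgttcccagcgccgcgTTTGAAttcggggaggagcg
Ccnb2: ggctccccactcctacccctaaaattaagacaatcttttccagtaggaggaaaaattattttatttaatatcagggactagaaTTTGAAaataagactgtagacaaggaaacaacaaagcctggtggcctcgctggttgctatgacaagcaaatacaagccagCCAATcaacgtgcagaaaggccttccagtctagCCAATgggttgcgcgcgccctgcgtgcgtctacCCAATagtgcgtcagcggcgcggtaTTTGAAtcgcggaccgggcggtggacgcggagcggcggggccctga
Ccnb1: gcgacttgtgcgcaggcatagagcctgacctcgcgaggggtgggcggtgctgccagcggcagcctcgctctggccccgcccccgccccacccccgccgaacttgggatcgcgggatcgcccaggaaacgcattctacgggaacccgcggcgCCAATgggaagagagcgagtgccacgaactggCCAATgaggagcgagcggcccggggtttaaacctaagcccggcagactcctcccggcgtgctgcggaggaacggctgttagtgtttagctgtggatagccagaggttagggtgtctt
Birc5: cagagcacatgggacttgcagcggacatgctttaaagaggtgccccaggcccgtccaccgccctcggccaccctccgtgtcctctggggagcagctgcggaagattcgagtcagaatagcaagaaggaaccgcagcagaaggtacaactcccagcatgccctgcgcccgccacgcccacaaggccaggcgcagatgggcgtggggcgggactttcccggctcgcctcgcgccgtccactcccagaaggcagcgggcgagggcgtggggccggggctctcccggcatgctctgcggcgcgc
Cdkn1b: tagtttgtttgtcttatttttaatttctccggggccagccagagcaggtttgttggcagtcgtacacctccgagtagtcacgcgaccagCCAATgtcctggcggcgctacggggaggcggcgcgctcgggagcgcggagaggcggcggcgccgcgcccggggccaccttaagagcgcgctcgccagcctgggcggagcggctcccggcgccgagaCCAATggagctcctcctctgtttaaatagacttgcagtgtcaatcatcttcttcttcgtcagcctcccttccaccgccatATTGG
The Mki67 and Ccnb2 windows each held 3 CCAAT and 2 CHR matches, and Plk1 held 1 of each. Ccnb1 held 2 CCAAT matches, the CDK inhibitor gene Cdkn1b held 3, and these letters are not in the Birc5 window.

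A CCAAT match lay in 12 of the 13 mitosis windows (92.3%) and in 37.9% of all 27025 promoter windows. A CHR match lay in 11 of 13 mitosis windows (84.6%), in 2 of 11 replication windows (18.2%) and in 19.4% of all windows. Of the E2F letters (TTTCCCGC, TTTGGCGC, TTTCGCGC or TTTGCCGC, either strand), 6 of 11 replication windows held a match (54.5%), 1 of 13 mitosis windows did (7.69%), and so did 2.32% of all windows. In the member windows, 1 pair of matches to different motifs shared bases. Such matches describe the letters and are not evidence of binding in these cells. Cenpa, the mitosis gene that was not called in FSClow against EpCAM, held both CCAAT and CHR letters. Aurkb, Ccna2, Mcm4, Gmnn, Ccne2, Ccnd1, Ccnd2, Rb1 and Cdkn1c were not among the genes with a window.

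The cyclins that activate CDK1 were close to absent from FSClow libraries. Ccnb1, a B-type cyclin needed to enter mitosis, was at 0 in 7 of 9 FSClow libraries and reached 0.908 CPM at most. It stood at 9.17 to 73.5 CPM in EpCAM and at 0 to 21.5 CPM in FSChi. The difference between FSClow and EpCAM was -6.42 ± 0.91 log2 units (SE, edgeR adjusted p = 3.8e-06). The other B-type cyclin, Ccnb2, gave a log2 fold change of -5.55 ± 0.94 (SE) and Ccna2, the cyclin of S phase and G2, one of -5.03 ± 0.75 (SE). Cdk1 itself, the kinase these cyclins activate, fell by 3.50 ± 0.67 log2 units (SE, edgeR adjusted p = 0.00015). Reads of Ccna2 cannot be told apart from those of Exosc9 where the genes overlap, since no source says that strand was used in counting.

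Birc5 (Entrez 11799, chromosome 11, 117849237 to 117855743) encodes survivin, a subunit of the chromosomal passenger complex. A total of 2 Birc5 reads were counted over the FSClow libraries, both in replicate 1 (0.992 CPM), against 332 in EpCAM. The FSChi libraries held 3.53, 0, 2.55, 6.16 and 0 CPM and the EpCAM libraries 12.4, 5.94, 3.18, 3.74 and 30.6 CPM, so FSClow lay below EpCAM in full and FSChi overlapped it. Of the 332 EpCAM reads, 203 lay in replicate 5. With that library included, the scaled ratio of EpCAM to FSClow was 168 with a 95% counting interval of 46.2 to 1395. The fitted log2 fold change of FSClow against EpCAM was -6.73 ± 0.95 (SE, edgeR adjusted p = 2.5e-06). It ranged from -8.54 to -5.88 when 1 library at a time was left out. The ratio of FSChi to FSClow was 44.5, with an interval of 11.9 to 375, from 67 FSChi reads. These intervals cover counting error only. Aurkb, the kinase of the same complex, fell by 4.14 ± 0.95 log2 units in FSClow against EpCAM (SE, edgeR adjusted p = 0.00089).

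Kinases and checkpoint genes of the spindle were also low in FSClow. Plk1 (Entrez 18817, chromosome 7, 122159435 to 122169884), a kinase of mitotic entry and spindle assembly, stayed between 0 and 1.43 CPM in FSClow with a median of 0.683 CPM. Its FSChi libraries held 2.12, 16.9, 4.30, 13.8 and 0.709 CPM and its EpCAM libraries 9.42, 12.4, 7.49, 4.67 and 30.4 CPM. FSClow lay below EpCAM without overlap, and FSChi replicates 2 and 4 lay among the EpCAM libraries. Plk1 fell by 4.24 ± 0.62 log2 units in FSClow against EpCAM (SE, edgeR adjusted p = 4.4e-06) and was higher in FSChi than in FSClow by 3.41 ± 0.64 (SE, edgeR adjusted p = 0.00033). In FSClow against EpCAM the log2 fold change was -3.10 for the centrosome kinase gene Aurka, -3.35 for the checkpoint kinase gene Bub1 and -4.42 for the anaphase activator gene Cdc20, and all 3 were called.

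Bub1b, which encodes the checkpoint protein BubR1, was the mitosis gene with the smallest p in FSChi against EpCAM. It ranged from 0 to 3.03 CPM in FSClow with a median of 1.43 CPM. FSChi libraries held 1.18, 0, 1.34, 2.99 and 0.354 CPM and EpCAM libraries 9.42, 4.75, 3.56, 7.64 and 11.6 CPM. No FSClow or FSChi library reached the EpCAM range. Bub1b fell by 2.45 ± 0.68 log2 units in FSChi against EpCAM (SE, edgeR adjusted p = 0.0095) and fell by 2.15 ± 0.55 in FSClow against EpCAM (SE, edgeR adjusted p = 0.0026). Kif11, a spindle motor gene, fell by 1.52 ± 0.59 log2 units in FSClow (SE, edgeR adjusted p = 0.039), but not past the threshold without EpCAM replicate 5 (-1.21, edgeR adjusted p = 0.14) or without FSClow replicate 1, FSClow replicate 3 or EpCAM replicate 2 (edgeR adjusted p = 0.057, 0.063 and 0.058).

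Cenpa, which encodes the histone H3 variant that marks centromeres, was the mitosis member that was not called in FSClow against EpCAM, and it was singled out after its values were seen. It stood at 18.9 to 38.2 CPM in the 9 FSClow libraries and at 18.4 to 24.7 CPM in the 5 FSChi libraries. EpCAM replicates 1 to 5 held 6.87, 10.7, 4.31, 4.99 and 58.1 CPM. Every FSClow and FSChi library was thus above EpCAM replicates 1 to 4 and below replicate 5. The log2 fold change of FSClow against EpCAM was 0.54 ± 0.44 (SE, edgeR adjusted p = 0.34) with all libraries and 1.90 without EpCAM replicate 5 (edgeR adjusted p = 5.99e-06). For FSChi against EpCAM it was 0.34 ± 0.50 (SE, edgeR adjusted p = 0.67) with that library and 1.70 without it (edgeR adjusted p = 0.00018).

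**Figure D2:**
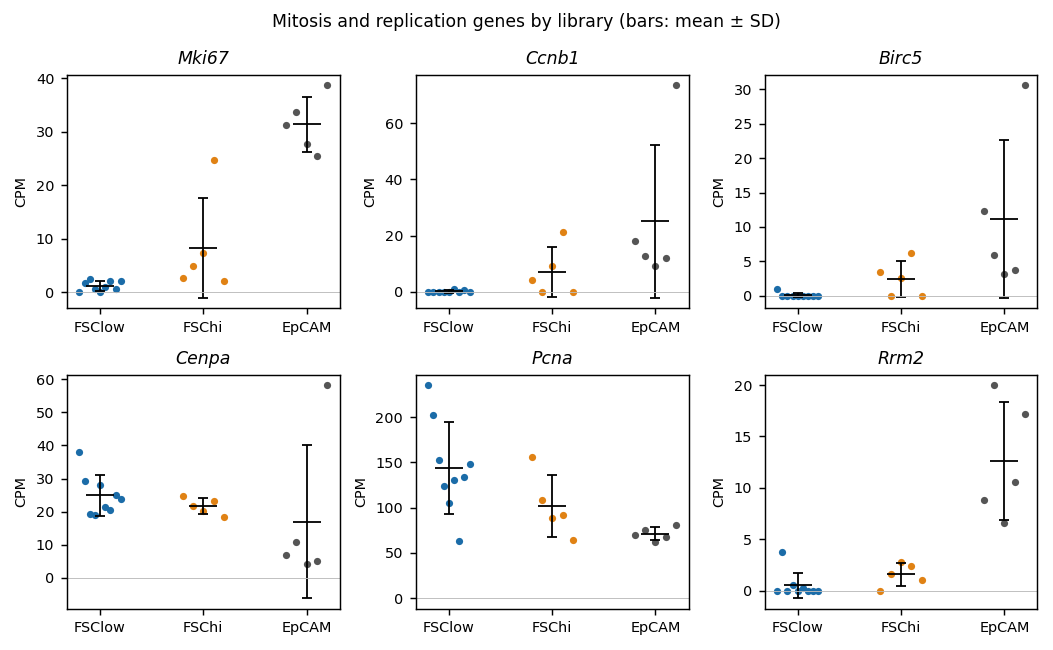
CPM (linear axis from 0) of 6 mitosis and replication genes in each library, with mean ± SD per group (FSClow n = 9, FSChi n = 5, EpCAM n = 5). Mki67, Ccnb1, Birc5 and Rrm2 lie near 0 in FSClow, Cenpa is at 18.4 CPM or more in all eGFP-positive libraries, and Pcna is spread from 63.2 to 235 CPM in FSClow.

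Of 13 replication genes, 12 were tested, and in FSClow against EpCAM 3 were lower, 1 was higher and 8 were not called. Among all tested genes 23.1% were lower and 22.0% higher, so the share of lower genes was near that background. Rrm2, the subunit of ribonucleotide reductase that is limited to cycling cells, was at 0 in 6 of 9 FSClow libraries, with a highest value of 3.75 CPM in replicate 2. FSChi libraries held 0, 1.61, 2.82, 2.43 and 1.06 CPM and EpCAM libraries 8.84, 19.96, 6.55, 10.6 and 17.2 CPM. No library of the eGFP-positive groups reached the EpCAM range. Rrm2 fell by 4.53 ± 0.79 log2 units in FSClow against EpCAM (SE, edgeR adjusted p = 4.2e-05) and fell by 2.92 ± 0.87 in FSChi against EpCAM (SE, edgeR adjusted p = 0.015). Rrm1, the other subunit, gave a log2 fold change of -0.36 ± 0.35 in FSClow against EpCAM (SE, edgeR adjusted p = 0.42), with 8.43 to 48.1 CPM in FSClow and 26.3 to 53.3 CPM in EpCAM.

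The 6 MCM genes encode the subunits of the replicative helicase. Mcm5 ranged from 3.36 to 13.3 CPM in FSClow with a median of 6.44 CPM. Its FSChi libraries held 0.705, 13.7, 6.45, 3.73 and 5.32 CPM and its EpCAM libraries 14.7, 24.95, 14.0, 14.2 and 27.7 CPM. All eGFP-positive libraries lay below EpCAM, FSChi replicate 2 by the least. Mcm5 fell by 1.39 ± 0.41 log2 units in FSClow (SE, edgeR adjusted p = 0.0073) and fell by 1.79 ± 0.50 in FSChi (SE, edgeR adjusted p = 0.010), each against EpCAM. Mcm3 fell by 1.56 ± 0.46 in FSClow (SE, edgeR adjusted p = 0.0071), while Mcm2, Mcm4, Mcm6 and Mcm7 had log2 fold changes of 0.28, -0.55, -0.07 and -0.03 and were not called.

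Some replication genes stood apart in FSClow replicates 1 and 2, in either direction. Mcm6 stood at 3.47 and 8.19 CPM in FSClow replicates 1 and 2 and at 20.4 to 53.1 CPM in the other 7 libraries, and Rrm1 stood at 8.43 and 9.56 CPM against 20.1 to 48.1 CPM. Mcm2 stood at 6.45 and 3.75 CPM in replicates 1 and 2 and at 11.3 to 52.3 CPM in the others. By contrast, Gmnn had its highest FSClow value in replicate 1 (13.4 CPM) and Tyms in replicate 2 (14.67 CPM). FSChi replicate 1 was likewise the lowest of its group for Mcm2 (3.29 CPM), Mcm6 (4.23 CPM) and Rrm1 (14.6 CPM).

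Pcna (Entrez 18538, chromosome 2, 132249286 to 132253180), the sliding clamp of DNA polymerase that also serves in DNA repair, went against the other called replication genes. It ranged from 63.2 to 235 CPM in FSClow with a median of 133.6 CPM. FSChi libraries held 155, 108.5, 88.2, 91.7 and 63.8 CPM and EpCAM libraries 69.7, 75.8, 61.8, 67.2 and 80.3 CPM. FSClow replicate 7 lay within the EpCAM range and the other 8 above it. Pcna was higher in FSClow than in EpCAM by 1.02 ± 0.25 log2 units (SE, edgeR adjusted p = 0.0014), and the difference of FSChi from EpCAM was 0.52 ± 0.27 (SE, edgeR adjusted p = 0.17). The highest Pcna values, 235 and 202 CPM, were in FSClow replicates 1 and 2, the libraries with low Mcm6 and Rrm1.

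The tested licensing genes and the thymidylate synthase gene were not called in FSClow against EpCAM. Cdt1, a licensing factor, gave a log2 fold change of 0.69 ± 0.45 in FSClow against EpCAM (SE, edgeR adjusted p = 0.23). Its inhibitor gene Gmnn (-0.82, edgeR adjusted p = 0.065) and the thymidylate synthase gene Tyms (-0.91, edgeR adjusted p = 0.052) lay just outside the threshold. Both passed it under relative log expression scaling, at -1.002 (edgeR adjusted p = 0.025) and -1.10 (edgeR adjusted p = 0.020). Between FSChi and EpCAM, Tyms (-1.20, edgeR adjusted p = 0.048) and Mcm4 (-1.16, edgeR adjusted p = 0.049) lay just inside it, and neither was called when any of FSChi replicates 1, 2 and 5 or EpCAM replicates 1 to 4 was left out (edgeR adjusted p from 0.058 to 0.109). The licensing gene Cdc6 did not pass the filter on low counts: it stood at 0 to 7.13 CPM in FSClow, 0 to 2.69 CPM in FSChi and 1.87 to 3.43 CPM in EpCAM.

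**Figure D3:**
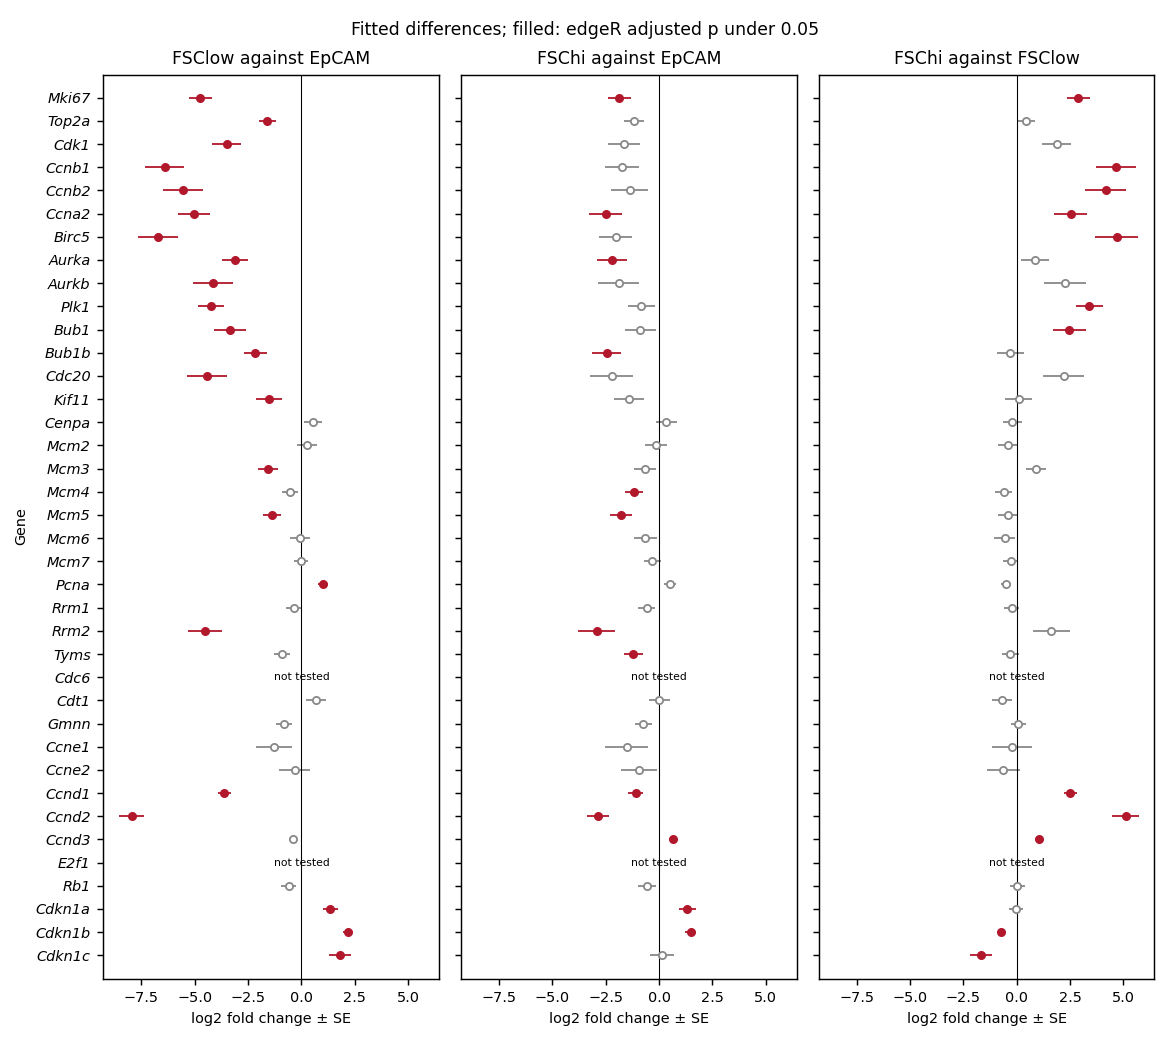
Fitted log2 fold change ± SE of each member in the 3 comparisons, on one shared horizontal scale, with filled red points for an edgeR adjusted p under 0.05 and open grey points for the rest. In FSClow against EpCAM the red points of the mitosis block run from -6.73 to -1.52, replication genes lie on both sides of 0, and the 3 CDK inhibitors lie to the right.

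The D-type cyclins, which start the cycle in response to growth signals, did not move together. Ccnd2 (Entrez 12444, chromosome 6, 127125162 to 127152188) was at 0 in 6 of 9 FSClow libraries and at most 1.51 CPM. FSChi libraries held 26.8, 4.02, 2.42, 19.2 and 13.47 CPM, and EpCAM libraries 108, 79.9, 96.2, 104 and 103 CPM. The 3 groups did not overlap. Ccnd2 fell by 7.96 ± 0.60 log2 units in FSClow (SE, edgeR adjusted p = 3.2e-10) and fell by 2.86 ± 0.53 in FSChi (SE, edgeR adjusted p = 0.00031), each against EpCAM. It was higher in FSChi than in FSClow by 5.11 ± 0.63 (SE, edgeR adjusted p = 2.9e-06).

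Ccnd1 (Entrez 12443, chromosome 7, 144929931 to 144939831) followed the same order. It ranged from 2.05 to 8.60 CPM in FSClow with a median of 4.63 CPM. FSChi libraries held 31.0, 29.7, 14.4, 37.7 and 28.0 CPM and EpCAM libraries 56.7, 55.4, 49.2, 55.8 and 83.5 CPM, again without overlap between groups. Ccnd1 fell by 3.61 ± 0.31 log2 units in FSClow (SE, edgeR adjusted p = 1.2e-09) and fell by 1.10 ± 0.34 in FSChi (SE, edgeR adjusted p = 0.018), each against EpCAM. Its difference between FSChi and FSClow was 2.52 ± 0.31 (SE, edgeR adjusted p = 2.1e-06). The gene shares 818 bases with LTO1, whose reads cannot be told apart there.

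Ccnd3 (Entrez 12445, chromosome 17, 47505051 to 47599689) was present in every library. It ranged from 23.3 to 30.4 CPM in FSClow with a median of 26.2 CPM. FSChi libraries held 47.0, 77.9, 49.6, 49.5 and 56.7 CPM and EpCAM libraries 37.5, 24.5, 33.5, 47.8 and 34.5 CPM. FSClow lay below FSChi in full, and EpCAM overlapped both. Ccnd3 was higher in FSChi than in FSClow by 1.04 ± 0.18 log2 units (SE, edgeR adjusted p = 1e-04) and higher than in EpCAM by 0.65 ± 0.20 (SE, edgeR adjusted p = 0.021). The second difference was not called without FSChi replicate 2 or 5 or EpCAM replicate 1, 2 or 3 (edgeR adjusted p from 0.052 to 0.070). Under relative log expression scaling it was 0.52 (edgeR adjusted p = 0.057), and FSClow against EpCAM went from -0.39 ± 0.18 (SE, edgeR adjusted p = 0.075) to -0.58 (edgeR adjusted p = 0.0088).

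Compared per gene length, as TPM from the single-library files, the D-type cyclin transcripts differed in makeup between groups, given here as a description with no test. Ccnd3 held 97.1% ± 1.90 of their summed TPM in FSClow (SD, n = 9), 75.2% ± 14.7 in FSChi (SD, n = 4) and 30.3% ± 6.04 in EpCAM (SD, n = 5). Ccnd2 held 51.3% ± 6.10 in EpCAM (SD, n = 5), 13.2% ± 9.17 in FSChi (SD, n = 4) and 0.351% ± 0.674 in FSClow (SD, n = 9). The share of Ccnd1 was 18.4% ± 3.74 in EpCAM (SD, n = 5), 11.6% ± 6.82 in FSChi (SD, n = 4) and 2.60% ± 1.76 in FSClow (SD, n = 9). The ranges of the Ccnd3 share did not overlap between groups, at 94.3 to 99.2% in FSClow, 61.1 to 89.4% in FSChi and 23.9 to 39.4% in EpCAM. The FSChi file that was nearly empty is left out of these shares. Like Ccnd1, the other 2 genes overlap neighbours whose reads may not be told apart there. Ccnd3 shares 7217 bases with Gm41590 and 359 with Bysl, and Ccnd2 shares 2800 with 9330179D12Rik. The TPM of Ccnd3 had a mean of 72.9 in FSClow (range 33.8 to 161) and 46.2 in EpCAM (range 31.0 to 59.7), the opposite order to that of the CPM means, 27.1 and 35.6.

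Of the other G1 members, none of those tested was called in any comparison with all libraries in the fit. The E-type cyclin genes Ccne1 and Ccne2, which act with CDK2 at the start of S phase, stayed at or below 7.46 CPM in every library and were not called in any comparison. The retinoblastoma gene Rb1 gave a log2 fold change of -0.60 ± 0.35 in FSClow against EpCAM (SE, edgeR adjusted p = 0.17). Without EpCAM replicate 5, its lowest EpCAM library, Rb1 was called lower, just inside the threshold (-0.82, edgeR adjusted p = 0.0488). It stood at 3.47 to 16.5 CPM in FSClow, 4.47 to 14.2 CPM in FSChi and 5.42 to 25.9 CPM in EpCAM. Rb1 shares 2468 bases with Lpar6 and Ccne2 shares 5622 with Ints8, whose reads cannot be told apart there. E2f1, an activating E2F factor, did not pass the filter on low counts. It stood at 0 to 1.15 CPM in FSClow, 0 to 1.06 CPM in FSChi and 1.56 to 5.94 CPM in EpCAM.

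The 3 Cip/Kip inhibitors were all higher in FSClow than in EpCAM. Cdkn1b (Entrez 12576, chromosome 6, 134920401 to 134925525), which encodes p27 and is a common mark of cells at rest, ranged from 77.6 to 129 CPM in FSClow with a median of 94.5 CPM. FSChi libraries held 57.1, 80.4, 63.7, 54.3 and 34.0 CPM and EpCAM libraries 16.7, 15.7, 24.7, 14.0 and 32.4 CPM. FSClow and FSChi both lay above EpCAM, and FSChi replicate 2 lay within the FSClow range. Cdkn1b was higher by 2.20 ± 0.23 log2 units in FSClow (SE, edgeR adjusted p = 3.1e-08) and by 1.47 ± 0.24 in FSChi (SE, edgeR adjusted p = 7.3e-05), each against EpCAM. In FSChi against FSClow it fell by 0.72 ± 0.21 (SE, edgeR adjusted p = 0.015), with a log2 fold change of -0.56 without FSChi replicate 5 (edgeR adjusted p = 0.064).

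Cdkn1a (Entrez 12575, chromosome 17, 29090979 to 29100722), which encodes the p53 target p21, was the most variable inhibitor in FSClow. It ranged there from 71.3 CPM in replicate 7 to 695 CPM in replicate 2, with a median of 330.4 CPM. FSChi libraries held 438.5, 434, 223.5, 286 and 348 CPM and EpCAM libraries 143, 166, 114, 116 and 154 CPM. FSClow replicate 7 lay below EpCAM and the other 8 above it, and FSChi lay above EpCAM in full. Cdkn1a was higher in FSClow by 1.36 ± 0.36 log2 units (SE, edgeR adjusted p = 0.0036) and in FSChi by 1.32 ± 0.40 (SE, edgeR adjusted p = 0.016), each against EpCAM. Without FSChi replicate 1, EpCAM replicate 3 or EpCAM replicate 4 the FSChi difference just missed the threshold (edgeR adjusted p = 0.051, 0.051 and 0.053).

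Early response genes, which cells switch on within minutes of a stimulus, also varied between FSClow libraries, in an order that only partly matched that of Cdkn1a. The summed level of 19 such genes was 35840 and 32750 CPM in FSClow replicates 1 and 2, where Cdkn1a stood at 643.5 and 695 CPM. It was 2653 CPM in replicate 7, where Cdkn1a was lowest. In replicates 3, 4, 5, 6, 8 and 9 the sum was 14120, 18600, 8897, 15030, 10900 and 25350 CPM. Cdkn1a stood there at 437, 285, 200, 198, 331.5 and 330.4 CPM, in a different order. EpCAM libraries ranged from 7762 to 12510 CPM and FSChi libraries from 6541 to 11120 CPM in this sum. Among all tested genes 22.0% were higher and 23.1% lower in FSClow against EpCAM. Of the 19 early response genes, 7 were higher, such as Egr2 (4.23 on the log2 scale) and Fosb (1.67), and 4 were lower, such as Socs3 (-3.57). Their part in the level of Cdkn1a was not tested. Among 14 p53 target genes, 11 were tested, and 2 were higher and 2 lower in FSClow than in EpCAM, no more than among all tested genes (22.0% and 23.1%). The kinase gene Plk2 rose by 5.54 on the log2 scale, Trp53inp1 rose by 1.31, and Phlda3 had 1 read in FSClow against 580 in EpCAM.

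Cdkn1c (Entrez 12577, chromosome 7, 143458339 to 143461059) encodes p57, an inhibitor tied to exit from the cycle during differentiation. It ranged from 4.66 to 22.2 CPM in FSClow with a median of 16.6 CPM. FSChi libraries held 9.88, 0, 5.51, 3.73 and 2.84 CPM and EpCAM libraries 2.95, 9.51, 2.62, 2.65 and 4.07 CPM. FSClow replicates 5 and 8 overlapped both other groups, and replicate 6 lay just above them. Cdkn1c was higher in FSClow than in EpCAM by 1.82 ± 0.51 log2 units (SE, edgeR adjusted p = 0.0048), and the log2 fold change of FSChi against FSClow was -1.69 ± 0.51 (SE, edgeR adjusted p = 0.017). The second difference was not called without FSChi replicate 4 or 5 (edgeR adjusted p = 0.053 and 0.054). The log2 fold change of FSChi against EpCAM was 0.13 ± 0.55 (SE, edgeR adjusted p = 0.89).

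**Figure D4:**
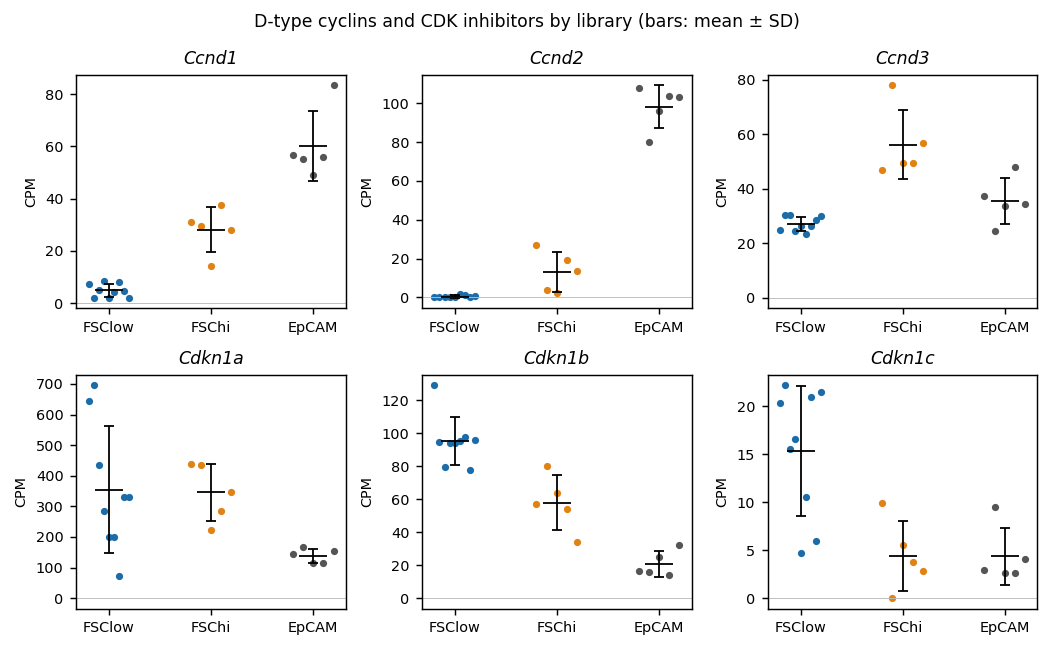
CPM (linear axis) of the 3 D-type cyclins and the 3 Cip/Kip inhibitors in each library, with mean ± SD per group (FSClow n = 9, FSChi n = 5, EpCAM n = 5). Ccnd1 and Ccnd2 step up from FSClow to FSChi to EpCAM without overlap, Cdkn1b steps down in the same order apart from FSChi replicate 2, which lies in the FSClow range, and Cdkn1a spreads from 71.3 to 695 CPM in FSClow.

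In the median summed level of its mitosis genes, FSChi (87.2 CPM) lay between FSClow (52.4 CPM) and EpCAM (228 CPM), with a wide spread. Of 15, 7 were higher than in FSClow (Mki67, Ccnb1, Ccnb2, Ccna2, Birc5, Plk1 and Bub1), against 15.5% of all tested genes. With a replicate block, 5 of these calls were lost (Ccnb1, Ccnb2, Ccna2, Birc5 and Bub1, edgeR adjusted p from 0.062 to 0.158). FSClow replicates 6 to 9 share no number with another group and do not inform the comparison in that fit, so it rests on fewer libraries. Of the 15, 4 were lower than in EpCAM (Mki67, Ccna2, Aurka and Bub1b), against 12.2% of all tested genes. No replication gene differed between FSChi and FSClow past the threshold. The summed mitosis level was 103, 69.1, 87.2, 216 and 31.2 CPM in FSChi replicates 1 to 5, 31.0 to 67.4 CPM in FSClow and 131 to 698 CPM in EpCAM. A few genes weigh heavily in these sums. In FSClow, Cenpa had a median of 23.9 CPM and Top2a of 11.6 CPM. In FSChi replicate 2, the shallowest library, 9 of the 15 genes had no read, and Cenpa, Top2a and Plk1 held 21.7, 22.5 and 16.9 CPM. FSChi replicate 5 was at the lower end of FSClow and replicate 4 lay within EpCAM. Without FSChi replicate 4, 15 members were lower in FSChi than in EpCAM, among them Ccnb1 (-2.73, edgeR adjusted p = 0.022) and Birc5 (-2.69, edgeR adjusted p = 0.029). Without EpCAM replicate 5, Ccna2 (-1.70, edgeR adjusted p = 0.12) and Aurka (-1.85, edgeR adjusted p = 0.074) were no longer called. Against FSClow, Ccna2 was not called without FSChi replicate 4 (1.59, edgeR adjusted p = 0.18), nor Bub1 without FSChi replicate 1 (1.67, edgeR adjusted p = 0.15). With RSEM expected counts and the nearly empty file left out, 4 members were lower in FSChi than in EpCAM, and Mki67 (-1.56, edgeR adjusted p = 0.10) and Rrm2 (-2.60, edgeR adjusted p = 0.083) were not called.

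Markers of other cell types also varied between the FSChi libraries, in differing orders. The 13 globose basal and neuronal progenitor markers summed to 323, 283, 402, 492.6 and 206 CPM in FSChi replicates 1 to 5, with the highest value in replicate 4 and the lowest in replicate 5, as for mitosis. The sums of immature olfactory neuron markers (886 CPM), sustentacular cell markers (1759 CPM) and leukocyte markers (605.5 CPM) were also highest in replicate 4. The leukocyte sum was also lowest in replicate 5 (8.15 CPM). Within it, Lyz2 alone reached 593.8 CPM in FSChi, and the marker Ptprc was at 0 in every EpCAM library. Other lists peaked elsewhere. Mature olfactory neuron (2900 CPM) and ciliated cell markers (367 CPM) were highest in replicate 1. Secretory cell (11930 CPM) and stromal and endothelial markers (167 CPM) were highest in replicate 5. The progenitor markers summed to 255 to 332 CPM in FSClow and 367 to 579 CPM in EpCAM. Of these markers, 9 were tested. Against EpCAM, 3 were higher and 5 lower in FSClow, where 22.0% and 23.1% of all tested genes were. In FSChi against FSClow 5 were higher and none lower, against 15.5% and 9.3% of all tested genes. The 3 higher in FSClow were Kit (2.42 on the log2 scale, edgeR adjusted p = 1.1e-09), Lgr5 (0.82, edgeR adjusted p = 0.048) and Hes6 (0.55, edgeR adjusted p = 0.048), named after their values were seen. Kit at 120 to 161 CPM and Hes6 at 90.5 to 137 CPM made up most of the FSClow sum, whereas Neurog1, a defining gene of neuronal progenitors, was at 0 in all FSClow libraries. The 9 horizontal basal cell markers summed to 1801, 172, 125.5, 827 and 988 CPM in FSChi, an order unlike that of mitosis, to 17.2 to 127 CPM in FSClow and to 1912 to 5143 CPM in EpCAM. Their highest sum was in EpCAM replicate 5, the library with the highest mitosis level. The part of these cell types in the mitosis levels was not tested.

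Further genes of the same processes were followed beside the members. Of 36 other mitosis genes, 34 were tested. In FSClow against EpCAM 26 were lower and 3 higher, against 23.1% and 22.0% of all tested genes. The median log2 fold change of the 34 was -2.43. Hmmr, a spindle assembly gene, fell by 5.92 on the log2 scale. The exceptions were the phosphatase gene Cdc25b (1.85 ± 0.28, edgeR adjusted p = 7.1e-06), the securin gene Pttg1 (1.66 ± 0.25, edgeR adjusted p = 6e-06) and the condensin gene Smc4 (0.95 ± 0.20, edgeR adjusted p = 0.00037), the last named after its value was seen. In FSChi against EpCAM, 6 of the 34 were lower, such as the cytokinesis gene Anln (-3.10), and 2 higher, Cdc25b (1.98) and Pttg1 (0.98). Among all tested genes 12.2% were lower and 13.5% higher there. In FSChi against FSClow, 7 of the 34 were higher, led by the ubiquitin-conjugating enzyme gene Ube2c (5.19), and 2 lower. Among all tested genes 15.5% were higher and 9.3% lower there.

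Of 30 other replication genes, 26 were tested. In FSClow against EpCAM 9 were lower and 4 higher, against 23.1% and 22.0% of all tested genes. The median log2 fold change of the 26 was -0.46. The 4 higher genes were Pola1, the catalytic subunit of the priming polymerase (1.74 ± 0.21, edgeR adjusted p = 3.4e-07), the histone mRNA binding gene Slbp (1.112 ± 0.187, edgeR adjusted p = 2.6e-05), the single-strand binding gene Rpa2 (1.31 ± 0.24, edgeR adjusted p = 7.4e-05) and the maintenance methyltransferase gene Dnmt1 (0.72 ± 0.29, edgeR adjusted p = 0.044). Pola1 stood at 29.2 to 55.6 CPM in FSClow and 9.82 to 19.3 CPM in EpCAM. Of the 26, 3 were lower in FSChi than in EpCAM (Tk1, Hells and Chaf1a), and Rpa2 was higher (0.74 ± 0.26, edgeR adjusted p = 0.039). These counts were not above the 12.2% lower and 13.5% higher among all tested genes. Between FSChi and FSClow, 3 of the 26 were higher and 4 lower in FSChi, against 15.5% and 9.3% of all tested genes. The lower genes included Pola1 (-1.29), Dnmt1 (-1.24) and Slbp (-0.66).

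Of 28 other G1 and quiescence genes, 25 were tested, and 6 were higher and 6 lower in FSClow than in EpCAM, close to the 22.0% and 23.1% of all tested genes. Cdkn2c, which encodes the CDK4 and CDK6 inhibitor p18, rose by 2.21 ± 0.35 log2 units (SE, edgeR adjusted p = 1.4e-05), from 1.69 to 6.65 CPM in EpCAM to 11.3 to 28.8 CPM in FSClow. In FSChi against EpCAM it rose by 2.06 ± 0.38 (SE, edgeR adjusted p = 0.00028). Cdk6 fell by 3.14 ± 0.61 in FSClow (SE, edgeR adjusted p = 0.00014) and fell by 2.56 ± 0.71 in FSChi (SE, edgeR adjusted p = 0.010). E2f2, an activating E2F factor, had no read in any FSClow library against 89 in EpCAM and 34 in FSChi. Against a floor of 3 counts over the FSClow libraries, it was at least 30.1-fold higher in EpCAM and at least 15.1-fold higher in FSChi. E2f7, an atypical E2F repressor, had 1 read in FSClow and 106 in EpCAM.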

How the data were processed

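RNA sequencing of 19 libraries was analysed from the deposited tables. The build was mm10, and the tools were featureCounts, DESeq2, RSEM (1.2.21), Picard (1.1073) and STAR (2.4.2a), per the submitters' processing notes, which give no roles. The authors deposited raw counts for 27179 Entrez identifiers, and a normalized table treated as a signal, each value a deposited count divided by a size factor (100% whole within 0.01 when multiplied back). The whole reads recovered from it are those of the count table, so the count test on them is the main test. Each library also has a deposited file of RSEM expected counts, which were rounded before use, and of TPM, per the file headers.

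Symbols came from a RefSeq table (GRCm38.p6) for 25275 identifiers and from identical rows for 582. In the single-library files, 47224 of 47729 Ensembl identifiers matched a symbol. Of the 19 count columns, 14 correlated best with the file of the same name and 5 (FSChi 3 to 5, EpCAM 1 and 2) with another file of the same group, and the FSChi 3 file was nearly empty (6807 expected counts). Groups were therefore kept, but replicate numbers differ between the sources.

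Counts were analysed with edgeR 4.0.16 in R 4.3.3: filterByExpr by group, TMM scaling and a robust quasi-likelihood fit of group over all 19 libraries, with Benjamini-Hochberg adjustment over 13340 genes. Standard errors come from the F statistic. The fit was tested on simulated data. Alternatives used limma 3.58.1 and DESeq2 1.42.0. Library totals were compared by exact permutation. Motifs were searched as exact letters on both strands of the first promoter window listed per gene.

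The members and lists were chosen with earlier results of these data known. Named were Mki67 and Top2a, per comparison up to 4 called members per direction with the smallest p, called members against the majority of their role, and up to 3 members of each other list per comparison. No column belonged to other samples (0).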

Additional observations from a re-analysis of the deposited data

Results flagged for a closer look

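In 9 of 102 pairs of a tested member and a group, the highest or lowest library stood apart from the rest of its group by Dixon's criterion on log2 CPM, which chance alone meets in about 5% of groups. EpCAM replicate 5 was the high library for Ccnb2 (69.4 CPM), Ccna2 (84.2 CPM) and Ccnd1 (83.5 CPM). FSChi replicate 1 was the low library for the helicase gene Mcm2 (3.29 CPM) and the licensing gene Cdt1 (2.35 CPM). FSClow replicate 1 was low for Mcm3 (0.0 CPM) and high for Cdkn1b (129 CPM). Cdt1 was low in FSClow replicate 5 (0.359 CPM), and Gmnn, its inhibitor gene, was low in EpCAM replicate 1 (8.05 CPM). Few reads lay behind the low Mcm3 value (0 reads) and the low Cdt1 values (1 read in FSClow replicate 5 and 10 in FSChi replicate 1).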

How the results depend on the processing

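The counts of members called kept within 1.5 times under relative log expression and upper-quartile scaling, both other filters and DESeq2. With 1 library left out, members lower and higher ranged from 18 to 22 and 4 to 5 in FSClow against EpCAM, from 7 to 15 and 1 to 4 in FSChi against EpCAM, and from 0 to 3 and 9 to 11 in FSChi against FSClow. The low ends were reached without EpCAM replicate 5 (7 lower) and EpCAM replicate 3 (1 higher) in FSChi against EpCAM. In FSChi against FSClow, 1 member was lower without FSChi replicate 4 and 0 without FSChi replicate 5. In FSClow against EpCAM, 2 members were higher on log2(TPM + 1) and 1 on log2(TPM + 0.1), against 4. In FSChi against EpCAM, 1 was higher with RSEM expected counts and 0 in both TPM settings that hold the nearly empty file, against 3. There, 5 were lower with RSEM expected counts, 4 with the nearly empty file left out and 16 on log2(normalized value + 1), against 10. In FSChi against FSClow, 2 were higher with only these groups in the fit, 2 on log2(TPM + 1) and 1 on log2(TPM + 0.1), against 10, and 1 was lower in each RSEM setting and in both TPM settings with the nearly empty file, against 2. With only these groups in the fit, 15 members were not tested, 8 of them called higher in the fit of all groups. The TPM fits that hold the nearly empty file reversed Ccnd3 (-0.41 and -1.06) and Cdkn1a (-0.58 and -1.24) in FSChi against EpCAM and Ccnd3 (-0.93 and -1.59) in FSChi against FSClow. Leaving out that file, and the TPM fit without it, were chosen after seeing the data. With a replicate block, 6 were higher and 1 lower in FSChi against FSClow: 5 calls of mitosis genes (Ccnb1, Ccnb2, Ccna2, Birc5 and Bub1) and those of Cdkn1b and Cdkn1c were lost, and Cdk1 and Pcna were gained. The block also takes FSClow replicates 6 to 9 out of the comparison, since no other group has these numbers. Deviations of same-numbered libraries correlated at -0.192 to 0.404, with the highest value between FSChi replicate 1 and FSClow replicate 1. FSChi replicate 1 also correlated with FSClow replicate 2 (0.369). The labels do not say whether the numbers pair the samples, and these correlations cannot decide it. Relative log expression scaling moved the median over all genes in FSClow against EpCAM from 0.05 to -0.14 (log2 fold change), and calls from 2931 higher and 3086 lower to 2244 and 3627. Calls over all genes moved by over 1.5 times as follows. In FSClow against EpCAM, 1009 and 577 genes were higher on log2(TPM + 1) and log2(TPM + 0.1), and 5152 and 4813 lower with no filter and with DESeq2. For FSChi against EpCAM, where 1797 were higher, 264 and 190 were on the TPM scales, 1137 on log2(TPM + 1) without the nearly empty file and 1166 with RSEM expected counts. For FSChi against FSClow, where 2069 were higher and 1241 lower, 1179 were higher with only these groups, and 327, 168 and 1148 in the 3 TPM settings. There, 584 were lower with the replicate block, 809 and 806 with RSEM expected counts with and without that file, 667 and 171 on the TPM scales, and 808 and 798 without FSChi replicates 1 and 4. Relative log expression scaling also moved the median over all genes in FSChi against EpCAM from -0.02 to -0.14. The cause of these changes was not tested. Depth limits statements on genes with under 3 counts in a library.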
